A study of Mus musculus with 12 samples.

Results

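Regulators of the primitive streak and of the mesendoderm, *T*, *Mixl1*, *Eomes*, *Gsc*, *Mesp1*, *Tbx6*, *Evx1*, *Wnt3* and *Lhx1*, were followed in epiblast-like cells (EpiLCs) with and without *Kdm5c*. They were chosen by name as known regulators of gastrulation, and all 9 of 9 are among the 22911 genes that the deposited tables list for each sex. EpiLCs model the epiblast around implantation and were obtained by growing mouse embryonic stem cells (ESCs) for 48 h in FGF2 and Activin A after 2i culture. RNA-Seq had been performed on 3 libraries, each from an independent ESC line per the labels, of 4 genotypes. Female controls were *Kdm5c* fl/fl and female knockouts *Kdm5c* Δ/Δ, male controls were *Kdm5c* fl/Y and male knockouts *Kdm5c* Δ/Y. In the Δ allele, Cre recombination has removed the exons that encode the demethylase domain of KDM5C, an X-linked enzyme that demethylates histone H3 at lysine 4, whereas controls carry the loxP-flanked allele. The labels give C57BL/6J as the strain of every sample, whereas the methods of the study describe the floxed strain as one of mixed background. All genotypes were grown in the same media, and no earlier or later time was sampled.

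The primitive streak is where epiblast cells leave the epithelium at gastrulation to form mesoderm and definitive endoderm. *Wnt3* encodes the secreted ligand that starts the streak, and it acts with Nodal and BMP signals. *T* (Brachyury), *Eomes* and *Tbx6* encode T-box transcription factors, of which *T* is a classical Wnt target. The homeobox genes *Mixl1* and *Evx1* mark the streak, *Evx1* its posterior part, whereas *Gsc* and *Lhx1* mark its anterior end and the node. *Mesp1* encodes a basic helix-loop-helix factor of the earliest mesoderm. *Eomes*, *Gsc* and *Lhx1* are also expressed in the visceral endoderm of the embryo, and *Eomes* in trophoblast as well.

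*T* lies on chromosome 17 of mm9 (NCBIM37) from 8627288 to 8635361 on the + strand, *Wnt3* on chromosome 11 from 103635464 to 103679271 on the + strand, and *Lhx1* on chromosome 11 from 84331479 to 84338923 on the − strand. *Mixl1* (chromosome 1, 182623174 to 182627165), *Gsc* (chromosome 12, 105709419 to 105711537) and *Mesp1* (chromosome 7, 86937127 to 86938674) are on the − strand. *Eomes* (chromosome 9, 118387330 to 118395250), *Tbx6* (chromosome 7, 133924997 to 133929074) and *Evx1* (chromosome 6, 52263492 to 52268372) are on the + strand. All 9 are protein-coding genes in the GENCODE annotation of that build. The stretches before the starts of these 3 genes are shown because their RNA differed most between the female genotypes. They are RefSeq promoter sequences, listed for assembly GRCm38.p6 and placed on mm9 by exact match, at chr17:8627038-8627287 (*T*, + strand), chr11:103635239-103635463 (*Wnt3*, + strand) and chr11:84339037-84339286 (*Lhx1*, − strand), 5′ to 3′ along the gene, and they end before the first annotated base of the gene. Capitals mark a match to the letters bound by TCF and LEF factors, the nuclear effectors of Wnt signalling.
T: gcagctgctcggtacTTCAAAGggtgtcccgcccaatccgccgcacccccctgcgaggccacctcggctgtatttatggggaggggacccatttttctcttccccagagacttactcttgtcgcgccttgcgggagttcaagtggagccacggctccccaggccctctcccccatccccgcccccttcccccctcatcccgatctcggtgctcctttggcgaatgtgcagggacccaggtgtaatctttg
Wnt3: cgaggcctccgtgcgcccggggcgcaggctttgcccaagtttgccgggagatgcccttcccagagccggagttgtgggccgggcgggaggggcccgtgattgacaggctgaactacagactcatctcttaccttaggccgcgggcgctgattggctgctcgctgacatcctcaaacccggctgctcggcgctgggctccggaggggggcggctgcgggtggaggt
Lhx1: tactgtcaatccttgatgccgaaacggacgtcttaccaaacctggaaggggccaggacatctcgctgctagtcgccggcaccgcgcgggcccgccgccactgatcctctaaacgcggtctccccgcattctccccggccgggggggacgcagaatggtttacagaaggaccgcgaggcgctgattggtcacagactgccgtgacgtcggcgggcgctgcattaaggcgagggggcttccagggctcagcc

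CTTTGAA and CTTTGAT were searched on both strands of the 250 bases before the RefSeq start in the 8 members that the RefSeq table lists (all but *Mixl1*). The *T* stretch held CTTTGAA on the opposite strand, as TTCAAAG, at positions −235 to −229 from the start. *Mesp1* held TTCAAAG at −73 to −67 and CTTTGAT at −31 to −25 from the RefSeq start. Both lie within the gene as GENCODE annotates it, and the 52 bases of the stretch before that start held neither. The other 6 members, *Wnt3* and *Lhx1* included, held neither. Of all 32851 promoters in the table, 7.48% held at least 1 of these letter runs. TCACACCT, a T-box half-site that overlaps neither, was in none of the 8 stretches and in 1.12% of all promoters. A match is a string of letters and not a measured binding site.

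The tables hold group means of normalized counts, that is, of read counts divided by a size factor for each library. From these means the whole reads of single libraries were worked out. The letters A, B and C order the libraries of each genotype by falling size factor and stand for no known ESC line. The recovered depth was 5516216 to 11092731 reads, so that 1 read is about 1 normalized count. The epiblast markers *Pou5f1* (2750.3 to 4402 normalized counts), *Otx2* (368 to 1662) and *Fgf5* (124 to 404) were present in all 12 libraries. Library B of *Kdm5c* fl/Y and library A of *Kdm5c* Δ/Y stood apart. Over 14132 genes, their median absolute log2 difference from the other 2 libraries of their genotype was 0.27 to 0.29 and 0.31 to 0.32, against 0.11 to 0.13 for the other pairs. Libraries A and C of *Kdm5c* fl/Y also held reads on genes that were silent elsewhere. Of 4982 genes with a mean under 0.5 in the other 3 genotypes, the median was 0.997 and 1.44 normalized counts in them and 0 in each of the other 10 libraries, and their 99th percentile was 7.98 and 10.1. Male values of single digits are therefore read with care.

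*Kdm5c* itself, the deleted gene, ranged from 2315 to 2429 normalized counts in *Kdm5c* fl/fl and from 1406 to 1505 in *Kdm5c* Δ/Δ libraries. The male ranges were 2110.05 to 2371 in *Kdm5c* fl/Y and 1897 to 1976 in *Kdm5c* Δ/Y libraries. Reads from exons outside the deletion are counted too, so these values check the labels only in part. Loss of *Kdm5c* was tested separately in females and males by limma, a linear model fitted across all genes, on log2(normalized count + 1), with Benjamini-Hochberg adjustment over all genes tested. A difference counted as a call at an adjusted p under 0.05, and folds are ratios of the group means of normalized counts. *Kdm5c* RNA fell by 0.70 on the log2 scale in females (SE 0.05, adjusted p = 4.7e-09), and in males its difference was −0.20 (SE 0.11, adjusted p = 0.274).

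In females, loss of *Kdm5c* split the streak regulators. *Wnt3*, *T* and *Evx1* fell, and *Lhx1*, *Gsc* and *Mixl1* rose, whereas *Eomes*, *Tbx6* and *Mesp1* did not pass the test. Thus 3 of 9 members were called higher, where 25.4% of all 19583 genes tested were, and 3 of 9 lower, where 24.6% were, so that calls among the members were about as frequent as among all genes. The median log2 change was 0.26 over the members and 0.00 over all genes.

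*Wnt3*, the ligand, held 154, 192 and 168 normalized counts in the *Kdm5c* fl/fl libraries A, B and C and 18.02, 12.6 and 18.2 in the *Kdm5c* Δ/Δ libraries. The genotypes were far apart, with no value between 18.2 and 154. *Wnt3* fell by 3.33 on the log2 scale (SE 0.19, adjusted p = 8.22e-11), and its mean was 10.5-fold lower in the knockout. *T* held 82.5, 114 and 93.4 normalized counts in *Kdm5c* fl/fl and 10.2, 5.89 and 18.2 in *Kdm5c* Δ/Δ libraries. The highest knockout library, 18.2, lay far below the lowest control library, 82.5. *T* fell by 3.09 on the log2 scale (SE 0.30, adjusted p = 1.17e-07), an 8.46-fold lower mean. In bulk RNA, fewer cells that express a gene and less RNA per cell cannot be told apart.

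*Lhx1*, which encodes a LIM homeodomain factor of the node and anterior streak, showed the opposite. It held 4.02, 6.59 and 3.34 normalized counts in *Kdm5c* fl/fl and 104, 94.3 and 100.05 in *Kdm5c* Δ/Δ libraries. Each control library held only a few reads, and the knockout libraries lay close together far above them. The log2 difference was 4.19 (SE 0.28, adjusted p = 6.52e-10), the largest among the members in size, and the mean was 21.4-fold higher. *Gsc* held 3.02, 1.10 and 4.45 normalized counts in *Kdm5c* fl/fl, from 1 to 4 reads, and 15.7, 11.8 and 9.09 in *Kdm5c* Δ/Δ libraries. The libraries did not overlap, and the log2 difference was 1.85 (SE 0.43, adjusted p = 0.00135). *Mixl1* held 15.1, 9.88 and 15.6 normalized counts in *Kdm5c* fl/fl and 36.0, 36.2 and 27.3 in *Kdm5c* Δ/Δ libraries. Each knockout library was above each control library, with a log2 difference of 1.25 (SE 0.28, adjusted p = 0.00111) and a 2.46-fold higher mean.

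*Evx1* was low throughout. It held 4.02, 7.69 and 5.56 normalized counts in *Kdm5c* fl/fl and 1.57, 2.53 and 1.01 in *Kdm5c* Δ/Δ libraries, the latter from 1 to 3 reads. *Evx1* fell by 1.33 on the log2 scale (95% interval −2.22 to −0.43, adjusted p = 0.0141). This call rested on single libraries, since the adjusted p was 0.0651 without *Kdm5c* fl/fl library B and 0.0561 without *Kdm5c* Δ/Δ library C, and it ranged from 0.0109 to 0.0651 over all alternatives. Exons of *Evx1* also share 73 bp with 5730457N03Rik, a noncoding gene on the opposite strand. The libraries are strand-specific per the series description, but the strand setting of the read counting is not given in the sources used here, so reads of the pair may not be told apart.

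Among the 3 members without a call in females, *Eomes* was well expressed. Its values were 170.007, 171 and 190.1 normalized counts in *Kdm5c* fl/fl and 174, 189 and 196 in *Kdm5c* Δ/Δ libraries. The genotypes overlapped, and the log2 difference was 0.07 (95% interval −0.13 to 0.27, adjusted p = 0.569), so a change of the size seen in *Wnt3*, *T* or *Lhx1* lies far outside its interval. *Tbx6*, the T-box gene of paraxial mesoderm, held 7.04, 5.49 and 14.5 against 8.62, 9.26 and 13.1 normalized counts, again with overlap. Its log2 difference of 0.26 had a wide 95% interval, −0.56 to 1.08 (adjusted p = 0.604). *Mesp1* had 0 reads in every *Kdm5c* fl/fl library and 1 read in every *Kdm5c* Δ/Δ library, both within the 3 reads that a count of 0 allows, and no fold is given for it. Neither genotype thus had measurable *Mesp1* RNA at this depth.

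**Figure D1:**
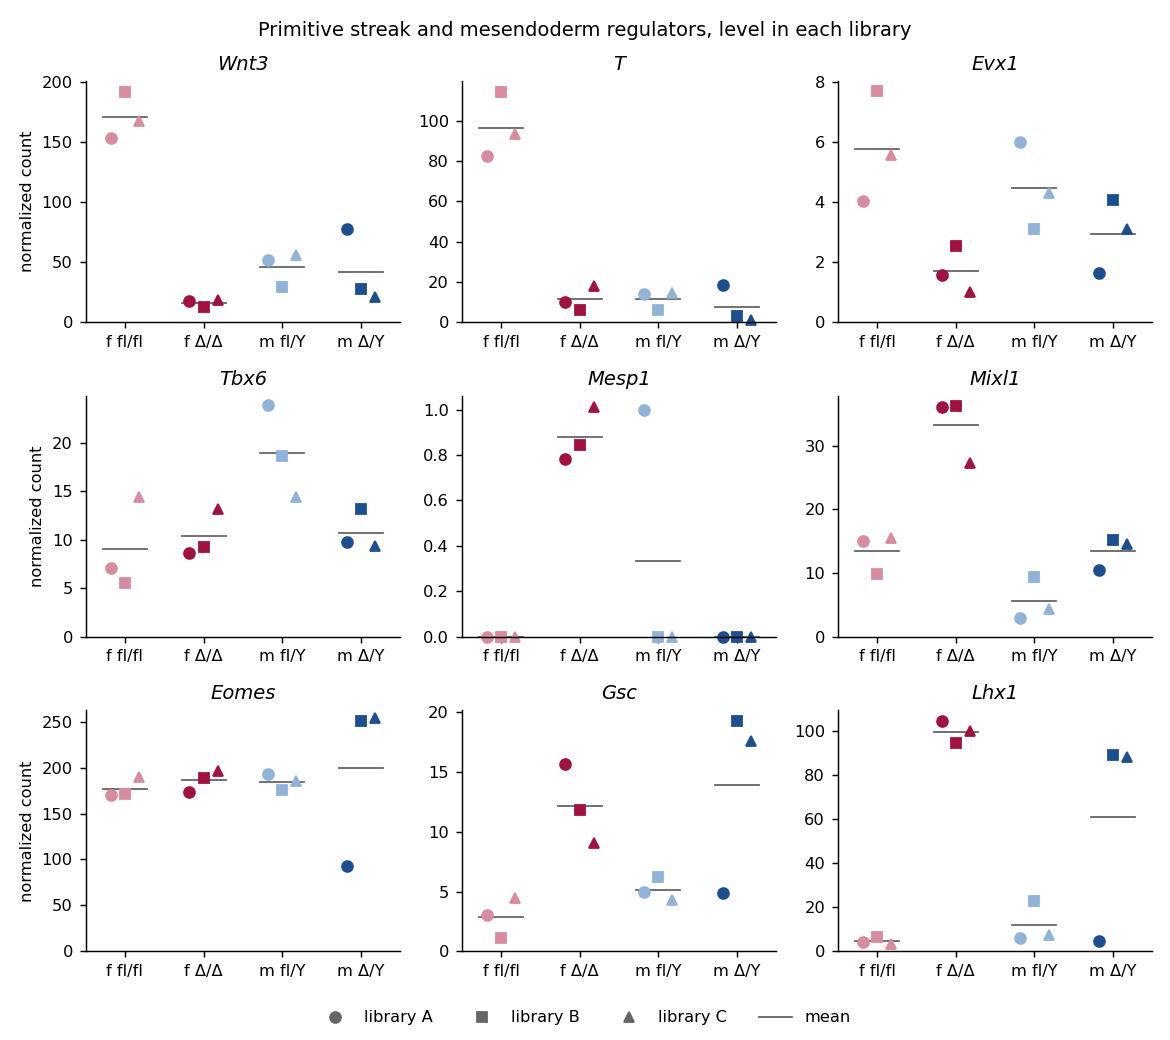
Normalized counts (y axis, linear, a scale of its own for each gene) of the 9 members in the 12 libraries, by genotype (x axis; f female, m male). Each symbol is 1 library and each line the mean of 3. *Wnt3* and *T* are highest in the female controls, and *Lhx1* is near 100 in the female knockouts and near 88 in 2 of 3 male knockout libraries. *Eomes* is level apart from the male knockouts, at 93.3 in library A and at 250.4 and 254 in libraries B and C.

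In males, none of the 9 members was called, where 4.19% of all 21900 genes tested were called higher and 3.58% lower. With limma voom, another form of the test, the number was also 0. Before adjustment, 1 member, *Mixl1*, was under 0.05 in limma (adjusted p = 0.181). The median log2 change was −0.30 over the members and −0.16 over all genes. Library A of *Kdm5c* Δ/Y differed from B and C in most members.

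*Lhx1* held 5.98, 22.7 and 7.19 normalized counts in the *Kdm5c* fl/Y libraries A, B and C and 4.87, 89.2 and 87.9 in the *Kdm5c* Δ/Y libraries. Knockout libraries B and C were thus near the female knockouts and library A at the level of the female controls. The log2 difference was 1.71 (SE 0.98, adjusted p = 0.302). *Gsc* held 4.98, 6.20 and 4.31 normalized counts in *Kdm5c* fl/Y and 4.87, 19.3 and 17.6 in *Kdm5c* Δ/Y libraries, a log2 difference of 1.09 (adjusted p = 0.275). The same pair of knockout libraries was high. *Mixl1* held 2.99, 9.30 and 4.31 in *Kdm5c* fl/Y and 10.6, 15.2 and 14.5 in *Kdm5c* Δ/Y libraries, which did not overlap, with a log2 difference of 1.24 (SE 0.52).

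*Wnt3* held 51.8, 28.9 and 56.0 normalized counts in *Kdm5c* fl/Y and 77.9, 27.4 and 20.7 in *Kdm5c* Δ/Y libraries. Knockout library A was the highest and knockout library C the lowest of the 6 male libraries, so that the log2 difference was −0.30 (SE 0.49, adjusted p = 0.708). *T* held 14.0, 6.20 and 14.4 normalized counts in *Kdm5c* fl/Y and 18.7, 3.04 and 1.03 in *Kdm5c* Δ/Y libraries, the last pair from 3 reads and 1 read. Library A of the knockout again lay above all controls, and the log2 difference was −1.12 (SE 0.81, adjusted p = 0.402). *Eomes* held 193, 176 and 185 normalized counts in *Kdm5c* fl/Y and 93.3, 250.4 and 254 in *Kdm5c* Δ/Y libraries. Its knockout values lay on both sides of the controls, with a log2 difference of −0.03 (95% interval −0.79 to 0.73, adjusted p = 0.965).

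The remaining members were low in males. *Tbx6* held 23.9, 18.6 and 14.4 normalized counts in *Kdm5c* fl/Y and 9.74, 13.2 and 9.31 in *Kdm5c* Δ/Y libraries, with no overlap but a log2 difference of −0.75 that did not pass the test (95% interval −1.70 to 0.19, adjusted p = 0.294). *Evx1* ranged from 3.10 to 5.98 in *Kdm5c* fl/Y and from 1.62 to 4.05 in *Kdm5c* Δ/Y libraries (adjusted p = 0.577). *Mesp1* had 1 read in all 6 male libraries together. The *Gsc*, *Mixl1*, *Evx1* and *Lhx1* values of *Kdm5c* fl/Y libraries A and C did not exceed the 99th percentile of the silent genes given above, whereas those of *Wnt3*, *Eomes*, *T* and *Tbx6* did.

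Without *Kdm5c* fl/Y library B and *Kdm5c* Δ/Y library A, which stand apart, 6 members were called in males. *Lhx1*, *Gsc*, *Mixl1* and *Eomes*, 4 of 9, were higher, where 17.7% of 21805 genes were, and *T* and *Wnt3*, 2 of 9, were lower, where 25.3% were. These libraries were left out after their values had been seen, and only 2 libraries per genotype remained. The *Kdm5c* fl/Y libraries that remained, A and C, are those with reads on genes that were silent elsewhere. In this fit the median log2 change was −0.42 over the members and −0.22 over all genes. *Lhx1* then differed by 3.57 on the log2 scale (SE 0.26, adjusted p = 0.000164), *Gsc* by 1.78 (adjusted p = 0.00982), *Mixl1* by 1.78 (adjusted p = 0.0133) and *Eomes* by 0.41 (adjusted p = 0.013). *T* fell by 2.40 (SE 0.49, adjusted p = 0.00935) and *Wnt3* fell by 1.15 (SE 0.24, adjusted p = 0.0108). In these libraries the changes of *Lhx1*, *Gsc*, *Mixl1* and *T* differed from those in females by −0.63, −0.07, 0.53 and 0.68 with no call (adjusted p = 0.211, 0.938, 0.341 and 0.386). *Wnt3*, *Eomes* and *Mesp1*, 3 of 9, did differ between the sexes in these libraries, where 45.6% of 21959 genes did. The difference was 2.18 for *Wnt3* (adjusted p = 0.000211), 0.34 for *Eomes* (adjusted p = 0.0357) and −1.41 for *Mesp1* (adjusted p = 0.0194), the last from 1 read or none per library. Over all alternatives, the adjusted p of the *Eomes* difference ran from 0.0357 to 0.949 and that of *Mesp1* from 0.0129 to 0.157. Over all alternatives of the male comparison, the adjusted p ran from 0.000164 to 0.634 for *Lhx1*, from 0.00982 to 0.605 for *Gsc*, from 0.0133 to 0.447 for *Mixl1*, from 0.013 to 0.995 for *Eomes*, from 0.00935 to 0.80003 for *T* and from 0.0108 to 0.946 for *Wnt3*. Leaving out *Kdm5c* Δ/Y library A alone gave 4 calls of 9, *Lhx1*, *Gsc*, *Eomes* and *T*, where 19.7% of all genes were called. Leaving out *Kdm5c* fl/Y library B alone gave 1 of 9, *Mixl1*, where 21.4% were.

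**Figure D2:**
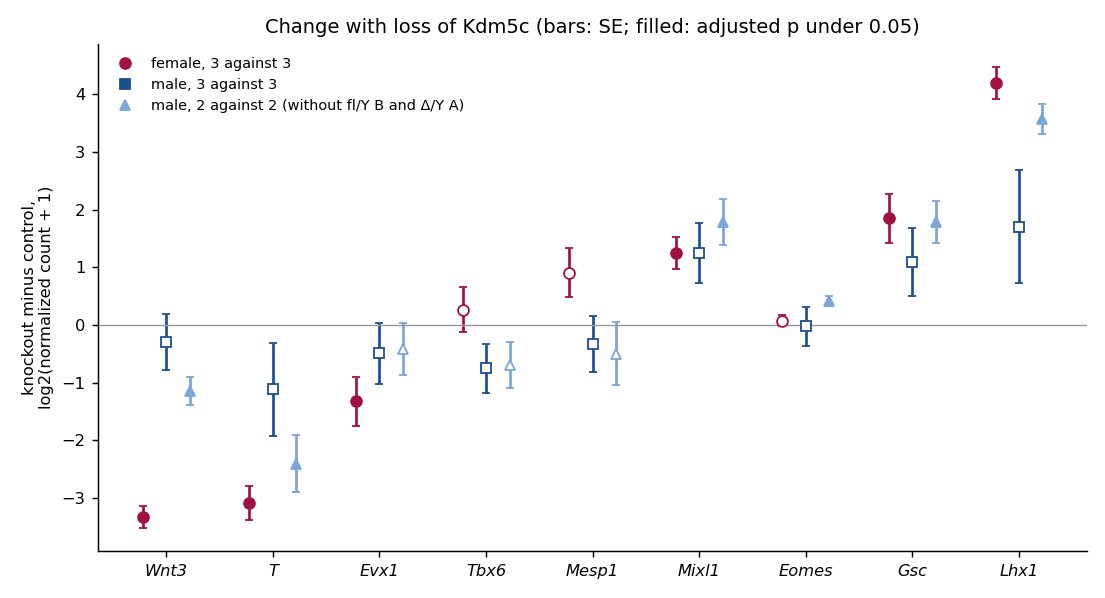
Knockout minus control on the scale of log2(normalized count + 1) (y axis) for each member (x axis), in females, in males and in males without *Kdm5c* fl/Y library B and *Kdm5c* Δ/Y library A. Points are limma estimates, bars are standard errors, and filled points have an adjusted p under 0.05. In females 6 points are filled, in all male libraries none, and in the 2 against 2 male libraries 6.

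A linear model of the 12 libraries with an interaction term asked whether the change itself differed between the sexes. *Wnt3* was the only member called, 1 of 9, where 21.2% of 22014 genes were. Its change in males exceeded that in females by 3.03 (SE 0.57, adjusted p = 0.00182). Over all alternatives its adjusted p stayed between 0.000197 and 0.00732. *T* had a difference of 1.97 (95% interval −0.06 to 4.00, adjusted p = 0.161) and *Lhx1* one of −2.49 (95% interval −4.97 to −0.00189, adjusted p = 0.148), so that a call in females alone does not show that these genes responded in females only. Without *Kdm5c* Δ/Y library A these differences shrank to 1.04 and −1.18 (adjusted p = 0.259 and 0.158), and that of *T* passed the test without *Kdm5c* Δ/Y library C (2.68, adjusted p = 0.0415). Over all alternatives the adjusted p ran from 0.0415 to 0.386 for *T* and from 0.0764 to 0.269 for *Lhx1*. The log2 changes of *Mixl1* were nearly equal in the 2 sexes (difference −0.01, 95% interval −1.21 to 1.20).

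The control genotypes already differed. *T*, *Wnt3* and *Mixl1*, 3 of 9 members, were higher in female than in male controls, where 21.5% of 22014 genes differed in either direction. The mean of *T* was 8.40-fold higher in *Kdm5c* fl/fl than in *Kdm5c* fl/Y libraries (log2 difference 3.03, SE 0.67, adjusted p = 0.00587). *Wnt3* was 3.76-fold higher (1.94, SE 0.40, adjusted p = 0.00404) and *Mixl1* 2.44-fold (1.24, SE 0.40, adjusted p = 0.0389), although the *Mixl1* call was lost without any 1 of the *Kdm5c* Δ/Δ libraries, without library A or C of either control and with limma voom, with adjusted p values of 0.0534 to 0.149. *T* in *Kdm5c* Δ/Δ EpiLCs (mean 11.4 normalized counts) was close to that in male controls (11.5), and *Wnt3* (16.3) was below its male control mean (45.6).

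Per kilobase of exon, the order of the members changed with genotype. In *Kdm5c* fl/fl EpiLCs, *Wnt3* was the highest at 55.7 normalized counts per kb, and *Eomes* (42.6) and *T* (41.8), whose libraries overlapped, came next. The other 6 lay at 5.89 or below, each overlapping its neighbour in the order except for *Mesp1*. In *Kdm5c* Δ/Δ EpiLCs, *Eomes* (44.8 per kb) was followed by *Lhx1* (24.1) and *Mixl1* (14.5), with no overlap between these 3. *Gsc* (9.63), *Tbx6* (5.73), *Wnt3* (5.29) and *T* (4.94) followed, each overlapping its neighbour. *Eomes* also came first in *Kdm5c* fl/Y (44.5 per kb) and in *Kdm5c* Δ/Y EpiLCs (47.99), ahead of *Wnt3* (14.8) in the former and of *Lhx1* (14.7) in the latter, without overlap. *Eomes* thus had a near constant mean in all genotypes, although its *Kdm5c* Δ/Y libraries spread from 22.5 to 61.2 per kb.

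Markers of another cell type, endoderm, also differed between the genotypes. The summed level of 16 endoderm markers, among them the transcription factor genes *Sox17*, *Gata4* and *Gata6* and the uptake receptor gene *Cubn*, ranged from 613 to 675 normalized counts in *Kdm5c* fl/fl and from 7522 to 7670.4 in *Kdm5c* Δ/Δ libraries. In females, 15 of 16 were called higher, with a median log2 change of 3.25, and *Foxa1* was the exception. In males the sum was 3471, 5863 and 3299.7 in *Kdm5c* fl/Y and 1049, 6931 and 7007 in *Kdm5c* Δ/Y libraries A, B and C. No endoderm marker was called higher in males and 2, *Sox17* and *Pdgfra*, were called lower. Without the libraries that stand apart, 10 were called higher and 4 lower, where 17.7% and 25.3% of all genes were. With all libraries, 4.19% of all genes were called higher and 3.58% lower in males, and 25.4% and 24.6% in females. *Cubn* alone made up the largest share of these sums, with a mean of 2999.8 of 7587 normalized counts in *Kdm5c* Δ/Δ EpiLCs. None of *Sox17*, *Gata4* or *Gata6* was at 0 in any library.

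The 6 libraries in which *Lhx1* exceeded 20 normalized counts were the 6 with the highest endoderm sums, from 5863 upward. Not all of the listed markers followed this order. *Sox17* was 285, 296 and 267 in *Kdm5c* fl/Y libraries A, B and C and 19.5, 116 and 111 in *Kdm5c* Δ/Y libraries. *Gata6* was 310, 412 and 296 against 39.8, 212 and 205. Both were thus lower in *Kdm5c* Δ/Y libraries B and C, where *Lhx1* was high, than in any *Kdm5c* fl/Y library. Without the libraries that stand apart, 10 of the 16 markers were called higher in males and 4 lower. *Lhx1* in *Kdm5c* fl/Y library B was 22.7 beside an endoderm sum of 5863, and 89.2 in *Kdm5c* Δ/Y library B beside a sum of 6931. *Wnt3* went the other way, and its 4 highest libraries, the female controls and *Kdm5c* Δ/Y library A, had the 4 lowest endoderm sums. *T* followed *Wnt3* in this order of 4, whereas the *Eomes* values of the female genotypes overlapped although their endoderm sums lay far apart. In males, *Eomes* was lowest in the library with the lowest endoderm sum (*Kdm5c* Δ/Y library A) and highest in the pair with the highest sums (*Kdm5c* Δ/Y libraries B and C). The part of these cells in the results was not tested. Trophoblast markers, a list of 10 that includes *Eomes* itself, went higher in males (8 of 10 called, *Krt7*, *Gata3* and *Hand1* among them) and were called 3 higher and 3 lower in females. Without the libraries that stand apart, 9 of 10 were higher in males, where 17.7% of all genes were. Their sum was 3778 to 4119.6 in *Kdm5c* fl/fl, 3182 to 3278 in *Kdm5c* Δ/Δ, 1591 to 2523 in *Kdm5c* fl/Y and 4828 to 9440 in *Kdm5c* Δ/Y libraries. *Krt8* alone made up most of these sums. Its mean was 3247 of 3896 normalized counts in *Kdm5c* fl/fl, 2348 of 3238 in *Kdm5c* Δ/Δ and 4696 of 7757 in *Kdm5c* Δ/Y EpiLCs. *Elf5*, a defining trophoblast gene, was not called in males and reached at most 4.06 normalized counts. *Cdx2*, another gene of this list, was among the 8 called higher in males. The male knockout libraries held 11.1 to 15.5 normalized counts of *Cdx2*, against 0.997 to 3.10 for the male controls.

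**Figure D3:**
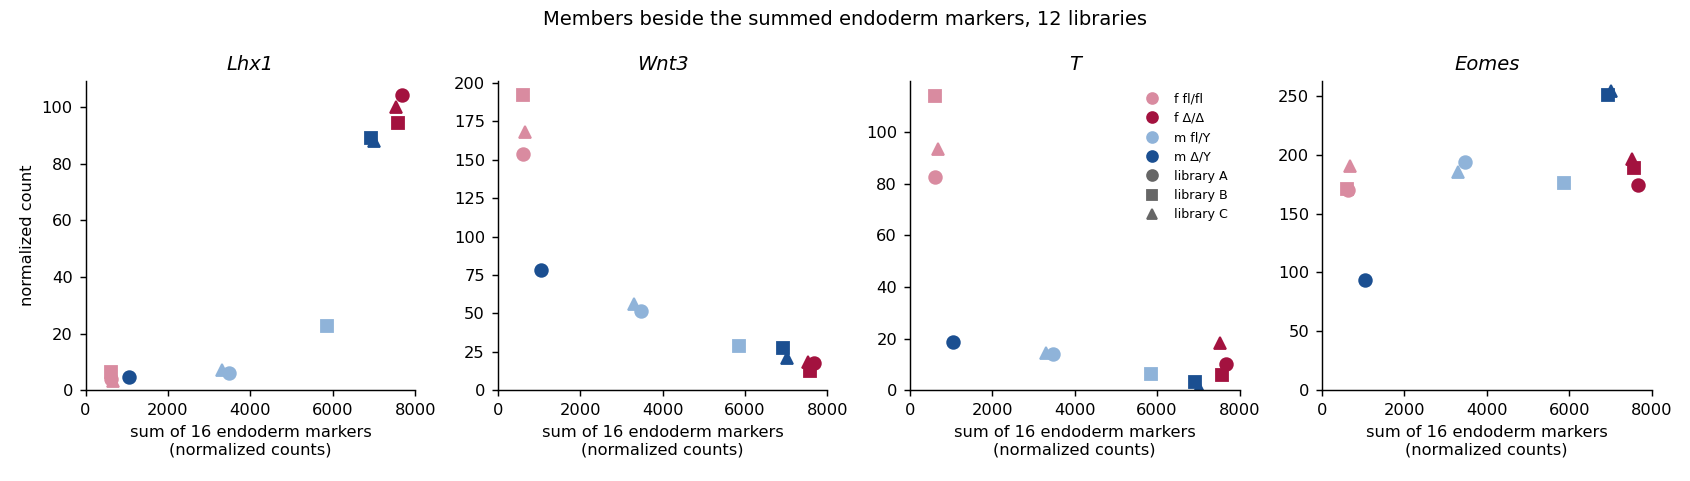
Normalized counts (y axis) of *Lhx1*, *Wnt3*, *T* and *Eomes* against the summed normalized counts of 16 endoderm markers (x axis) in the 12 libraries; colours give the genotype and symbols the library letter. *Lhx1* is above 20 only at sums of 5863 or more, whereas the 4 highest *Wnt3* and *T* values lie at the 4 lowest sums.

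Other markers moved as well. Over all genes, 25.4% were called higher and 24.6% lower in females, and 4.19% and 3.58% in males. Naive pluripotency markers were called higher for 9 of 12 genes in females and 6 of 12 in males, with *Esrrb* among both. The formative and primed epiblast list was split in females, with 5 of 11 higher and 5 lower, and had 4 of 11 lower in males, *Otx2*, *Pou3f1*, *Fgf5* and *Utf1*. Neural markers had 2 of 10 higher and 3 lower in females, where *Sox1* fell by 3.08 on the log2 scale (adjusted p = 4.68e-10), and 1 of 10 higher, *Tubb3*, in males. Fibroblast markers were lower for 4 of 10 in females and higher for 5 of 10 in males. Germ cell markers had 7 of 10 higher and 2 lower in females and 3 higher and 2 lower in males. Their part in the members' results was not tested.

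Genes of the Wnt pathway went in both directions in females. Of 28, 9 were called higher and 12 lower, where 25.4% of all genes were called higher and 24.6% lower. The median log2 change was −0.08 against 0.00 over all genes. *Wnt8a*, a ligand of the posterior epiblast and streak, moved like *Wnt3*. It held 359, 395 and 329 normalized counts in *Kdm5c* fl/fl and 21.9, 41.3 and 37.4 in *Kdm5c* Δ/Δ libraries, and fell by 3.44 on the log2 scale (SE 0.18, adjusted p = 2.38e-11). *Wls*, which carries Wnt proteins to the cell surface, fell by 2.16 (adjusted p = 2.86e-12). The targets and feedback genes *Rnf43*, *Sp5* and *Axin2* fell as well (log2 changes −1.99, −1.504 and −0.64, adjusted p = 1.07e-05, 0.00151 and 0.000172). The secreted inhibitors *Notum* and *Dkk1*, also Wnt targets, rose by 2.82 and 1.78 (adjusted p = 6.12e-07 and 9.68e-06). Among the other ligand genes of the list, *Wnt5b* fell by 1.15 (adjusted p = 0.00554), *Wnt5a* and *Wnt11* were not called, and *Wnt3a*, also without a call, ranged from 0 to 4.04 normalized counts in the 12 libraries.

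In males, 2 of the 28 Wnt genes were called higher, *Notum* (2.37, adjusted p = 0.0333) and *Sfrp1* (1.19, adjusted p = 0.0383), and 1 lower, *Tcf7* (−0.83, adjusted p = 0.00881). *Wnt8a* held 79.8, 64.1 and 73.3 normalized counts in *Kdm5c* fl/Y and 167, 21.3 and 16.6 in *Kdm5c* Δ/Y libraries. Like *Wnt3*, it was highest in knockout library A and lowest in B and C. Its log2 difference was −0.86 (adjusted p = 0.47). Without the libraries that stand apart, 7 of 28 were higher and 7 lower, with *Wnt8a* among the lower ones. In that fit 17.7% of all genes were called higher and 25.3% lower, and with all male libraries 4.19% and 3.58%.

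Nodal and BMP pathway genes were called about as often as all genes in females. Of 25, 7 were higher and 7 lower, where 25.4% of all genes were higher and 24.6% lower. Their median log2 change was −0.07. *Nodal* held 648, 724 and 654 normalized counts in *Kdm5c* fl/fl and 416, 369 and 416 in *Kdm5c* Δ/Δ libraries, and fell by 0.75 on the log2 scale (SE 0.07, adjusted p = 8.21e-08). Its co-receptor gene *Tdgf1* fell by 0.39, its antagonist and target *Lefty2* fell by 0.33, and *Smad3*, which encodes its signal transducer, fell by 1.33 (adjusted p = 1.02e-05, 5.81e-05 and 1.64e-10). *Smad7*, the inhibitory SMAD, rose by 1.05 (adjusted p = 6.08e-11), and the ligands *Gdf3* and *Bmp2* rose by 0.84 and 1.76 (adjusted p = 3.33e-07 and 0.000722). Changes of the Nodal pathway genes were thus smaller than those of *Wnt3* and *Wnt8a*. In males, *Pcsk6*, a convertase that processes Nodal, and *Bmpr1a*, a BMP receptor, were called higher (1.04 and 0.53, adjusted p = 0.0377 and 0.02003), 2 of 24 tested, and none lower. Without the libraries that stand apart, 5 were higher and 3 lower, where 17.7% and 25.3% of all genes were. With all male libraries, 4.19% of all genes were called higher and 3.58% lower.

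**Figure D4:**
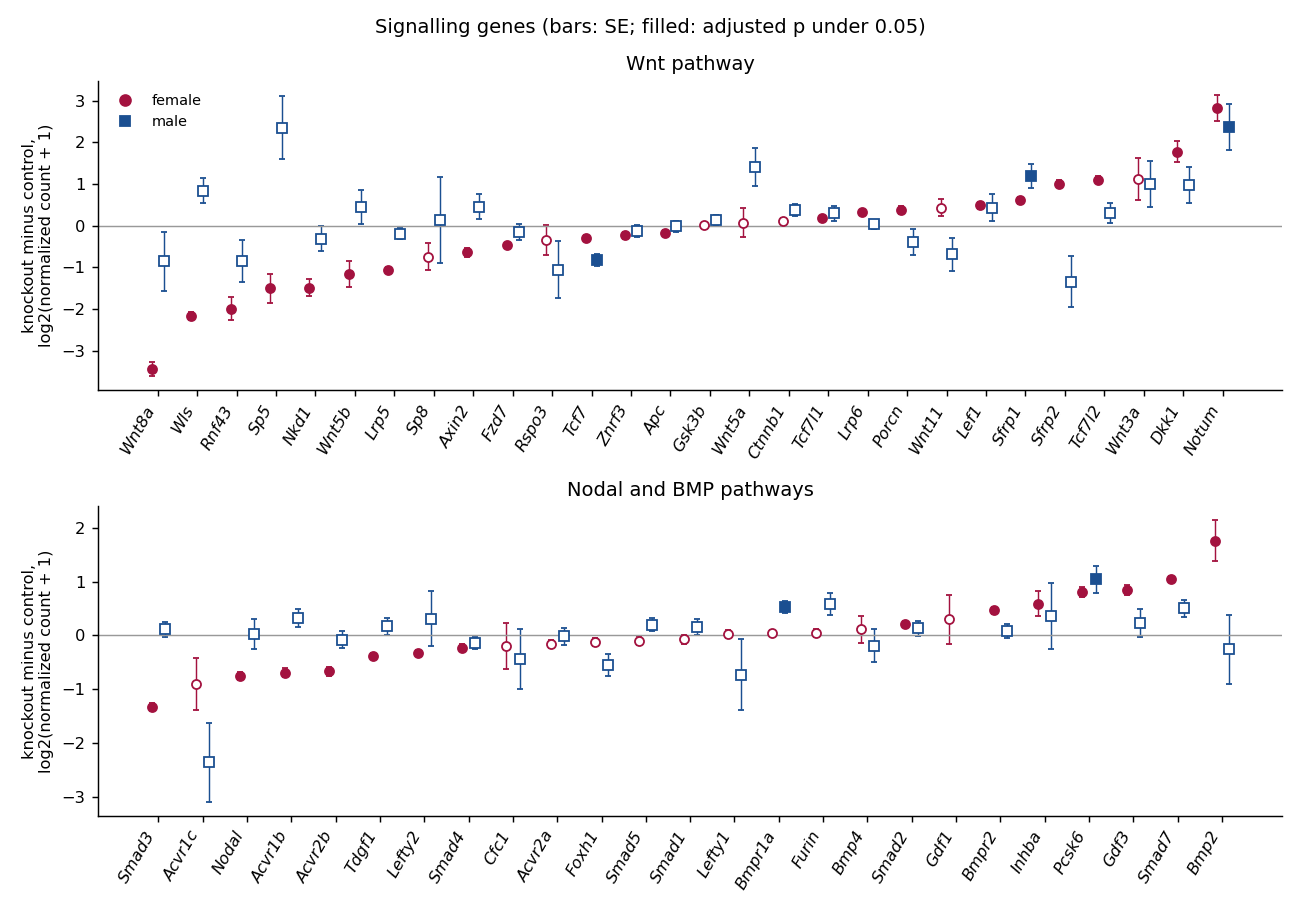
Knockout minus control on the scale of log2(normalized count + 1) (y axis) for 28 Wnt pathway genes and 25 Nodal and BMP pathway genes (x axis, ordered by the female value), in females and in males with all libraries. Points are limma estimates, bars standard errors, and filled points have an adjusted p under 0.05. *Wnt8a* has the lowest and *Notum* the highest female value of the Wnt genes, and the Nodal and BMP genes with calls lie between −1.33 (*Smad3*) and 1.76 (*Bmp2*).

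Genes that act with or after the streak regulators gave 13 of 29 higher and 6 lower in females, with a median log2 change of −0.13. Over all genes, 25.4% were called higher and 24.6% lower. The posterior ligands *Fgf8* and *Fgf17* fell (log2 changes −3.20 and −3.69, adjusted p = 7.68e-12 and 7.39e-11). *Fgf8* went from 230.4, 288 and 230.1 normalized counts in *Kdm5c* fl/fl to 25.1, 30.3 and 23.2 in *Kdm5c* Δ/Δ libraries, a fall like that of *T* and *Wnt3*. *Foxa2*, *Cer1* and *Hhex*, expressed in anterior streak and endoderm, rose by 3.12, 0.97 and 1.02 (adjusted p = 4.25e-09, 0.00972 and 0.00176). Genes of the node differed among themselves. *Foxj1*, a regulator of motile cilia, fell from a mean of 129 to 39.3 normalized counts (log2 change −1.69, adjusted p = 4.71e-08). *Chrd*, a BMP antagonist, was not called (mean 28.2 to 19.6), whereas *Nog*, another BMP antagonist, was called higher (mean 35.6 to 138). *Snai1*, a repressor of epithelial genes at the streak, rose by 2.25 (adjusted p = 1.83e-11), and *Cyp26a1*, which degrades retinoic acid, by 3.68 (adjusted p = 1.06e-14). *Mesp2*, a gene of the presomitic mesoderm, fell by 1.26 (adjusted p = 0.00148). *Ripply2* was called lower on 1 to 3 reads per *Kdm5c* fl/fl library against 0, which is too few for a level, and *Dll1*, *Dll3*, *Hes7* and *Msgn1* were not called. *Sox17*, *Foxa2* and *Pdgfra* are also in the endoderm list.

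In males, 3 of these 29 genes were called higher, *Hand1* (4.68, adjusted p = 0.000138), *Cdx1* (5.72, adjusted p = 0.00156) and *Cdx2*, and 5 lower, *Sox17*, *Pdgfra*, *Otx2*, *Dll1* and *Foxj1*. *Hand1* and *Cdx2* are also in the trophoblast list, most of which was called higher in males, and *Sox17* and *Pdgfra* in the endoderm list. The part of those cells was not tested. *Cdx1*, a posterior homeobox gene, held 0, 1.03 and 2.87 normalized counts in *Kdm5c* fl/Y and 45.5, 155 and 157 in *Kdm5c* Δ/Y libraries. It was high in all 3 knockout libraries, unlike *Lhx1*, *Gsc* or *T*. *Fgf8* was 9.97, 26.9 and 7.19 in *Kdm5c* fl/Y and 109, 22.3 and 17.6 in *Kdm5c* Δ/Y libraries (log2 difference 1.42, adjusted p = 0.2495), with library A of the knockout the highest, as for *Wnt3*. Without the libraries that stand apart, 9 of the 29 were higher and 8 lower in males, where 17.7% and 25.3% of all genes were. With all male libraries, 4.19% of all genes were called higher and 3.58% lower.

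Few of the other T-box genes were called. Of 14, 2 were called higher in females, *Tbx3* (2.57, adjusted p = 1.5e-13), which is also a naive pluripotency gene, and *Mga* (0.41), and 1 lower, *Tbx5* (−0.49). Over all genes tested in females, 25.4% were called higher and 24.6% lower. *Tbx1*, *Tbx10*, *Tbx19*, *Tbx21*, *Tbx22* and *Tbr1* held few reads in the female libraries, which limited what could be called. In males 1 was called, *Tbx3* (1.76, adjusted p = 0.00259). Among 16 LIM homeobox genes and partners of LIM homeodomain proteins, 3 were called higher in females and 7 lower, so that the rise of *Lhx1* was not shared by the list, whose median was −0.34. *Ldb1*, the cofactor that bridges LIM proteins, rose by 0.45 (adjusted p = 5.03e-06), whereas its relative *Ldb2* and the partner *Ssbp2* fell (log2 changes −4.34 and −2.90, adjusted p = 1.8e-08 and 4.17e-10). None of the 16 was called in males by limma, where 2, *Ldb1* and *Ssbp2*, were under 0.05 before adjustment (adjusted p = 0.0541 and 0.20003). Without the libraries that stand apart, 2 were higher and 5 lower, where 17.7% and 25.3% of all genes were. With all male libraries, 4.19% of all genes were called higher and 3.58% lower. *Lhx6*, also called higher in females, rose by 0.78 (adjusted p = 0.034), and *Lhx8* was called on a mean of 1.14 normalized counts against 0.

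Genes with the most similar pattern were found for the 4 members with a mean of at least 20 normalized counts, by the Pearson correlation of log2(normalized count + 1) over the 12 libraries. The search covered 11217 genes whose mean reached 50 normalized counts. The points share libraries, depth and genotype, so the values are descriptions. *Lhx1* was most like *Apob* (r = 0.99), which encodes a lipoprotein of visceral endoderm and liver, and like *Pip4k2b* (0.98). *Wnt3* was most like *Dhrs3* (0.98), *Agap3* (0.98) and *Olfm1* (0.97), and *T* most like *Dnajb5* (0.98), *Gng3* (0.97) and *Epha7* (0.95). *Eomes* had lower values, with *Snx3* (0.91), *Gcdh* (0.89) and *Prss42* (0.88). Among the members themselves, *T* and *Wnt3* went together (r = 0.85), as did *Lhx1* and *Gsc* (0.86), whereas *Lhx1* and *Wnt3* went opposite ways (−0.90).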

How the data were processed

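RNA-Seq had been performed on EpiLCs of 4 genotypes with 3 libraries each. Per the labels and the study, single-end reads of 50 bp were mapped to mm9 with TopHat2 2.1.0 and Bowtie2 2.2.6.0. The strand setting of the counting is not given in the sources used here. The signal values that the authors deposited, 1 table per sex, are mean normalized counts of 3 libraries. The deposited columns with fold changes, p-values and adjusted p-values of the authors' DESeq comparison were not used.

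Reads per library (5516216 to 11092731, counting error only) were worked out from the means as whole numbers. Each gene with a mean up to 10000 had exactly 1 solution. Limma 3.58.1 in R 4.3.3 was fitted with an intensity trend to log2(normalized count + 1), with genes at 0 in every library left out. The solver and limma were tested on simulated data. The size factors match a joint scaling of the 12 libraries within 0.988 to 0.999, so the sexes were compared directly. Recovered libraries carry no sample numbers. P-values measure the spread between libraries.

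The members, lists, motifs and tests were chosen with earlier results of these data known. Named are all members, *Kdm5c*, in each other list up to 4 called genes with the largest changes and a mean of at least 10, and the 3 genes most like each member. Some genes that this rule names are not reported here. *Nodal*, *Lefty2*, *Tdgf1*, *Wnt3a*, *Wnt5b*, *Axin2*, *Sp5*, *Dkk1*, *Fgf8*, *Foxa2*, *Cer1*, *Hhex*, *Snai1*, *Mesp2*, *Ripply2*, *Foxj1*, *Chrd*, *Ldb1* and any further gene outside it were picked with their values in view. Alternatives were a pseudocount of 0.1, limma voom, a minimum mean of 10, other scalings, 1 fit over all libraries, and fits without single libraries. Leaving out *Kdm5c* fl/Y library B and *Kdm5c* Δ/Y library A together was added after seeing the data for comparisons between the sexes and for the lists. *Foxf1a*, in the list of later streak genes, was not matched in the tables.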

Additional observations from a re-analysis of the deposited data

Results flagged for a closer look

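The change with loss of *Kdm5c* differed between the sexes for 19 of 37 genes looked at, by the limma interaction term over 22014 genes (change in males minus change in females, log2), which called 21.2% of all genes. Apart from the members and *Kdm5c*, these genes had been named for large called changes in 1 sex or the other, so a high share with a difference was built in. Among the members, *Wnt3* had a difference of 3.03 (adjusted p = 0.00182). It fell in all 3 female knockout libraries, whereas male knockout library A was above and libraries B and C were below all 3 male controls. *Kdm5c* itself had a difference of 0.50 (adjusted p = 0.00347).

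Signalling genes with a difference were *Wnt8a* (2.58), *Wls* (3.01), *Tcf7* (−0.52), *Smad3* (1.45), *Smad7* (−0.55) and *Bmpr1a* (0.49), with adjusted p values between 3.3e-05 (*Smad3*) and 0.0485 (*Smad7*). Later genes of the streak and of endoderm were *Fgf17* (2.67), *Cdx1* (6.08), *Hand1* (3.74), *Cyp26a1* (−3.24), *Sox17* (−5.65), *Pdgfra* (−5.91), *Gata6* (−5.56) and *Cubn* (−5.05). *Tbx3* (−0.81), *Lhx6* (−1.504) and the LIM cofactor partner *Ssbp2* (2.22) completed the set. Without *Kdm5c* Δ/Y library A the difference moved to 1.55 for *Wnt8a*, −2.07 for *Cyp26a1* and −0.53 for *Tbx3*, each by over 1.5 times, and without *Kdm5c* fl/Y library B as well to 1.47, −1.73 and −0.43. Leaving out single libraries ended the call of *Wnt8a* in 9 of 12 fits, of *Cyp26a1* in 5, of *Tbx3* in 8, of *Lhx6* in 9, of *Smad7* in 10 and of *Tcf7* in 5 (highest adjusted p = 0.102, 0.068, 0.0857, 0.114, 0.113 and 0.0658). The other 13 genes kept theirs in all 12. In groups of 3 libraries no test for outlying libraries was made.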

How the results depend on the processing

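In females, 101 of 104 values of the members under the alternatives kept their direction and their side of the threshold; *Evx1* was lost without 1 of 2 libraries, and *Mesp1*, at 1 read or fewer, passed with a pseudocount of 0.1. The number of genes called in females was 9799 and fell to 6493 in 1 fit over all libraries. In males it was 1703, 4766 in 1 fit over all libraries, 331 to 4684 without single libraries and 9377 without *Kdm5c* fl/Y library B and *Kdm5c* Δ/Y library A, and the members called were 0, 1, 0 to 4 and 6. For the interaction of sex and genotype 4675 genes were called, 3554 to 7334 without single libraries and 10014 without both, with 1 member (1 to 2 and 3), and 2 members with a pseudocount of 0.1. Between the control genotypes 4741 were called, 2894 to 8318 without single libraries and 10724 without both.

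Direction changed for *Eomes* in males (−0.03, then −0.27 to 0.45 without single libraries, with 0.01 and 0.45 the reversed values, and 0.41 without both) and for its interaction (−0.10, then −0.34 to 0.38 and 0.34). *Wnt3* in males was −0.30 and −0.855 to 0.0768 without single libraries. The interaction of *Mixl1* was −0.01, −0.30 to 0.38 without single libraries (0.06, 0.06, 0.19, 0.15 and 0.38 where reversed), 0.10 with a pseudocount of 0.1, 0.0562 with scaling by total reads and 0.53 without both. The cause was not tested, beyond fewer libraries in each such fit. A minimum mean of 10 dropped *Mesp1*, *Evx1*, *Gsc* and *Tbx6* in females, which left 4 calls.

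No paired analysis was possible because the libraries worked out from the means carry no replicate numbers. Depth limits *Mesp1*, *Evx1*, *Gsc* and male *T*, where single reads move the value. No member's call in females depended on the scaling.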
